A study of Mus musculus with 12 samples.

Results

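Mediator and Integrator are 2 large protein complexes that act on RNA polymerase II, and their subunits are named Med or Ints followed by a number. Members were the entries of the deposited RefSeq table whose identifier maps to a mouse symbol of that form, or to Cdk8 or Ccnc, with 1 Integrator gene left aside by the rule. The rule found 44 of 19746 entries, 31 of Mediator and 13 of Integrator. It used names and no measured value, and all 44 passed the filter on low levels. Med26 has an annotated symbol of this form and was not found among the entries used.

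Mediator carries signals from DNA-bound transcription factors to RNA polymerase II at promoters. Its core has a head, a middle and a tail joined by the scaffold Med14, and a separable kinase module of Cdk8, cyclin C (Ccnc), Med12 and Med13 binds the core and limits its contact with the polymerase. Integrator travels with the polymerase near gene starts, where its endonuclease Ints11 cuts nascent RNA such as the ends of small nuclear RNAs, while another arm of the complex recruits the phosphatase PP2A. Both complexes serve transcription in nearly all cells, and Mediator is known in embryonic stem cells for its heavy loading at enhancers of pluripotency genes.

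The libraries come from mouse cells of the C57BL/6 strain, which were either wild type (WT) or Mettl3 knockout (KO). The Mettl3 product is the catalytic subunit of the enzyme that places the m6A mark on mRNA. WT and KO embryonic stem cells (ESCs) were kept in serum-free N2B27 medium with LIF and the inhibitors CHIR99021 and PD0325901, which hold the naive state. WT and KO embryoid bodies (EBs), aggregates of differentiating cells, were grown from ESCs in medium with serum. All 4 conditions received actinomycin, which blocks transcription, and were collected after 0, 4 and 8 h, so each condition has 3 libraries and each of the 12 groups has 1. The labels do not say how many knockout lines were used, which part of Mettl3 was deleted, on which day EBs were collected or whether the times of a condition share a culture. The p-values below therefore measure only the scatter between these libraries.

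Each value is the authors' normalized level from reads at transcript 3′ ends, so it does not grow with transcript length. Column totals differed by 3.02-fold, and by the smallest steps of their values the libraries held 208874 to 666805 read equivalents. Totals ran from 1.01e+07 to 1.11e+07 in ESCs and from 3.67e+06 to 8.31e+06 in EBs, so every EB total was below every ESC total. Mettl3 itself had a level of 251 in WT and 98.1 in KO ESCs at 0 h, and of 175 in WT and 16.8 in KO EBs. At 8 h in EBs it was 84.0 in KO and 77.4 in WT, and a 3′ tag outside the deleted part would check nothing. The 10 ESC markers, all above 0 in every library, summed to 79272 to 91155 in WT ESCs, 49138 to 56891 in KO ESCs, 10038 to 39317 in WT EBs, with KO EBs at 28974 to 37878. The 10 endoderm markers gave 13899 to 18481 in WT EBs. In KO EBs they gave 1238 to 1582, below the 3243 to 4165 of both kinds of ESC. Foxa2 was at 0 in WT EBs at 8 h, and Foxa2 and Sox17 were at 0 in KO EBs at 8 h. The summed endoderm markers were thus higher in EBs than in ESCs in WT and not in KO libraries. Sparc alone gave 3036 of the sum of 3624 in WT ESCs at 0 h and 2637 of 3243 in KO ESCs. At the same time in WT, only Gata6 at 4 h (16.1 against 69.3) and Gata4 at 8 h (90.1 against 118) were lower in EBs. Some single markers were higher in KO EBs than in KO ESCs, such as Gata6 at 4 h (74.6 against 0). On the deposited scale the summed ESC markers were lower in EBs than in ESCs of both genotypes. The part of the lower EB column totals in this was not tested. Dppa5a went the other way in KO, with 6279 in EBs against 4528 in ESCs at 0 h and 8820 against 7834 at 4 h. The 6 fibroblast markers summed to 1845 to 2292 in KO EBs against 4076 to 4429 in WT EBs. The share of 1297 olfactory and vomeronasal receptor entries above 0, a measure of background, was 6.63 to 9.41% in ESCs and 26.2 to 35.8% in EBs.

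Before actinomycin, subunit transcripts were of moderate abundance and spanned a wide range. The median level of the 44 members at 0 h was 537 in WT ESCs, 393 in KO ESCs, 346 in WT EBs and 307 in KO EBs, beside 232, 247, 187 and 162 for all 12704 entries tested. Averaged over the 0 h libraries of the 4 conditions, Cdk8 stood highest at 3274. It was followed by Ints3, a subunit shared with a single-stranded DNA-binding complex, at 1365, the head subunit Med17 at 1142 and Med28 at 1039. The lowest were Med12l, the paralog of Med12, at 53.9 and Ints12, a subunit with a PHD finger, at 135. Subunits of the same module were therefore far from equal in level, as in the head, from Med20 at 219 to Med17 at 1142. In the kinase module the highest and lowest members of the whole set stand side by side. The Cdk8 level also rose after actinomycin, as given below, and whether all of its tags come from Cdk8 mRNA was not tested.

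**Figure D1:**
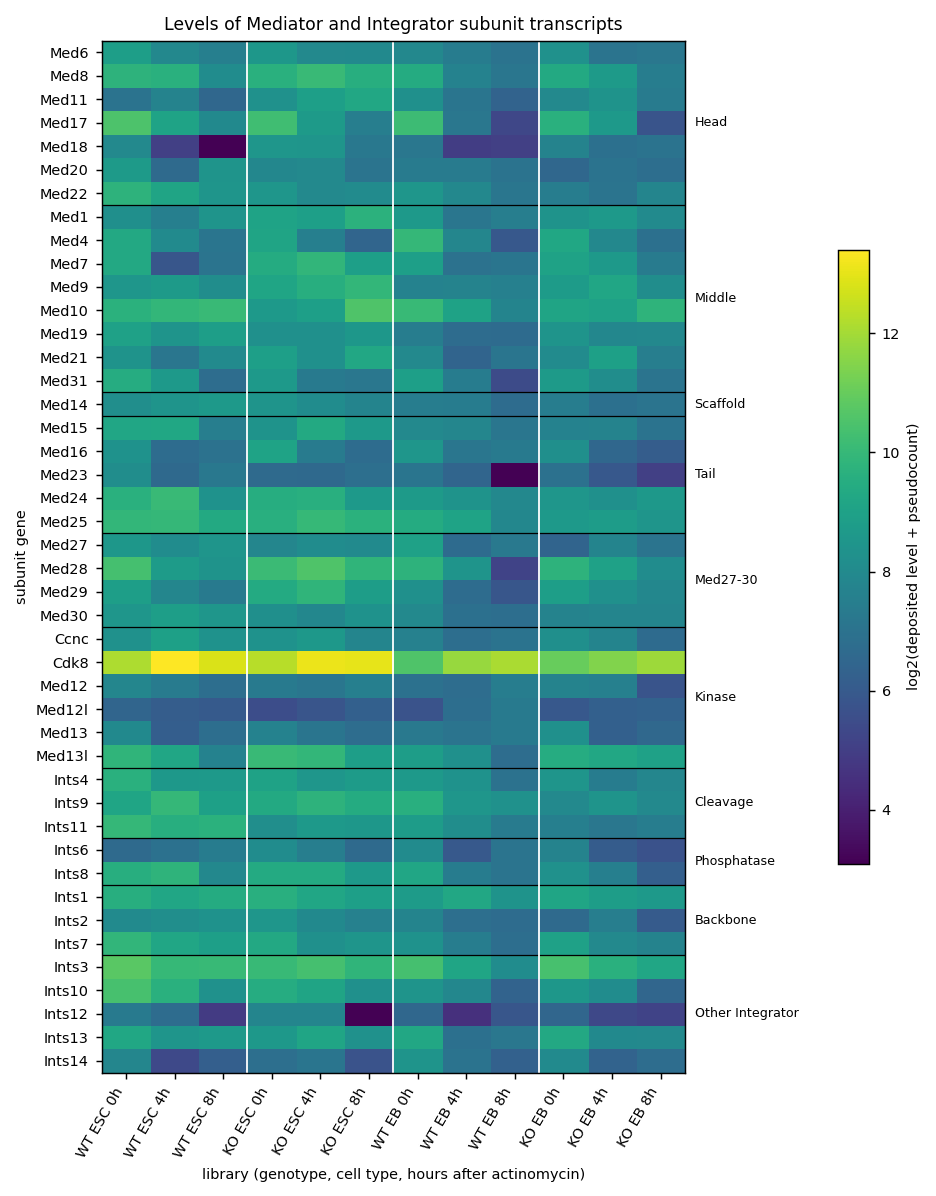
Levels of the 44 subunit transcripts (rows, by module) in the 12 libraries (columns), as log2 of the deposited level plus the pseudocount of 8.58, with white lines between conditions. Cdk8 is the brightest row in every library, and the dark cells are Med18 in WT ESCs at 8 h, Ints12 in KO ESCs at 8 h and Med23 in WT EBs at 8 h, each listed at 0.

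In the kinase module, Cdk8 (NM_153599, chromosome 5, 146230795 to 146302874 on GRCm38), the kinase itself, had levels of 4512, 10813 and 7165 at 0, 4 and 8 h in WT ESCs and of 5035, 8791 and 8198 in KO ESCs. WT EBs had 1490, 3621 and 4353, whereas 2060, 2784 and 3819 were found in KO EBs. Each 4 h and 8 h library was above its own 0 h library, and every ESC library was above every EB library. The other members of the module had far lower levels. Ccnc, the cyclin that partners Cdk8, had levels of 305, 481 and 323 in WT ESCs, 315, 372 and 210 in KO ESCs, 190, 106 and 121 in WT EBs, and 292, 207 and 94.4 in KO EBs. Cdk19, the paralog of Cdk8 and no member by the rule, had levels of 54.9 to 169.

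Med12, which activates Cdk8, had levels of 218, 157 and 105 in WT ESCs and 150, 133 and 180 in KO ESCs, with 114, 101 and 171 in WT EBs and 203, 184 and 46.7 in KO EBs. Med13, which joins the kinase module to the core, had 246, 63.4 and 105 in WT ESCs, 193, 130 and 103 in KO ESCs, 144, 126 and 155 in WT EBs, and 303, 67.6 and 87.0 in KO EBs. The WT and KO ranges of both genes overlapped in both cell types. Their paralogs differed from each other in abundance. Med12l had 80.4, 61.4 and 56.3 in WT ESCs, 38.2, 47.1 and 67.6 in KO ESCs, 44.7, 104 and 148 in WT EBs, and 52.4, 67.8 and 71.5 in KO EBs. Med13l had 916, 576 and 198 in WT ESCs, 1078, 964 and 458 in KO ESCs, 447, 305 and 101 in WT EBs, and 701, 605 and 495 in KO EBs. Med13l was thus above Med13 in every library except the WT EB library of 8 h. The scaffold Med14 had 281, 337 and 388 in WT ESCs, 335, 268 and 209 in KO ESCs, 167, 165 and 97.1 in WT EBs, and 170, 113 and 126 in KO EBs.

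After actinomycin, the transcripts of 20 subunits fell and that of 1, Cdk8, rose. The mean slope over the 4 conditions, a change in log2 level per hour, was negative and passed in 20 of 44 members and positive in 1, by limma at an adjusted p under 0.05. That is 47.7% of the members, where 21.7% of all entries tested passed in either direction. The share called lower was 45.5% of the members beside 21.4% of all entries, and the members' median slope was -0.10 beside -0.05. The gap was smaller among abundant entries. Among the 6513 entries that pass a filter at 20 ppm, 17 of 36 members were called, or 47.2% beside 40.9%, with medians of -0.09 and -0.07. The 20 lower members were 12 of 31 in Mediator and 8 of 13 in Integrator. With column totals set equal, 12 members fell and 1 rose, and with median-ratio scaling 10 fell and 1 rose.

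Med17, the subunit around which the head is built, fell most steeply. Its levels were 1446, 527 and 245 in WT ESCs, 1212, 415 and 172 in KO ESCs, 1126, 135 and 30.3 in WT EBs, and 782, 383 and 46.5 in KO EBs. Every 8 h library was below its 4 h library, and every 4 h library below its 0 h library. The share of the 0 h level left at 8 h was 16.9%, 14.2%, 2.69% and 5.95% in the same order, with a mean slope of -0.44 ± 0.04 (SE, limma adjusted p 8.44e-06).

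Med4, a middle subunit, had levels of 629, 251 and 128 in WT ESCs, 539, 181 and 78.9 in KO ESCs, 978, 217 and 53.1 in WT EBs, and 587, 233 and 112 in KO EBs. Its slope was -0.35 ± 0.03 (limma adjusted p 2.17e-05), and like Med17 it declined at each step in all 4 conditions. Med31, a small middle subunit, had 701, 401 and 102 in WT ESCs, 391, 150 and 136 in KO ESCs, 470, 162 and 35.5 in WT EBs, and 409, 275 and 124 in KO EBs, with a slope of -0.29 ± 0.04 (limma adjusted p 0.000183). Med28 followed at -0.27 ± 0.04 (limma adjusted p 0.000215). The head subunit Med18 fell by 0.28 ± 0.05 (limma adjusted p 0.00214), and this call was lost without the 0 h library of WT EBs (-0.21, adjusted p 0.0748) or of KO EBs (-0.25, adjusted p 0.0713).

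In Integrator, all 5 members outside the cleavage, phosphatase and backbone groups fell on the deposited scale: Ints3, Ints10, Ints12, Ints13 and Ints14. Ints12 had the steepest slope of them, -0.29 ± 0.08 (limma adjusted p 0.0182), on levels of only 155, 99.0 and 20.9 in WT ESCs, 215, 215 and 0 in KO ESCs, 85.3, 14.8 and 49.2 in WT EBs, and 82.4, 31.5 and 27.7 in KO EBs. In the KO ESC library of 8 h the counting interval reached 98.9, and the slope lost its call without any of 6 libraries, with values from -0.14 to -0.33. Those libraries are WT ESC 0 h (-0.33) and 8 h (-0.25), KO ESC 8 h (-0.14), WT EB 0 h (-0.18), and KO EB 0 h (-0.26) and 8 h (-0.32). The Ints12 call was also lost with equal column totals (-0.24), with median-ratio scaling (-0.22), without the variance trend and without both 8 h EB libraries. It was kept in 8 of 18 other fits. Ints10, which belongs to an arm with Ints13 and Ints14, had a slope of -0.23 ± 0.03 (limma adjusted p 0.000381). Of the other groups, Ints4, Ints7 and Ints8 passed, and Ints1, Ints2, Ints6, Ints9 and Ints11 did not.

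**Figure D2:**
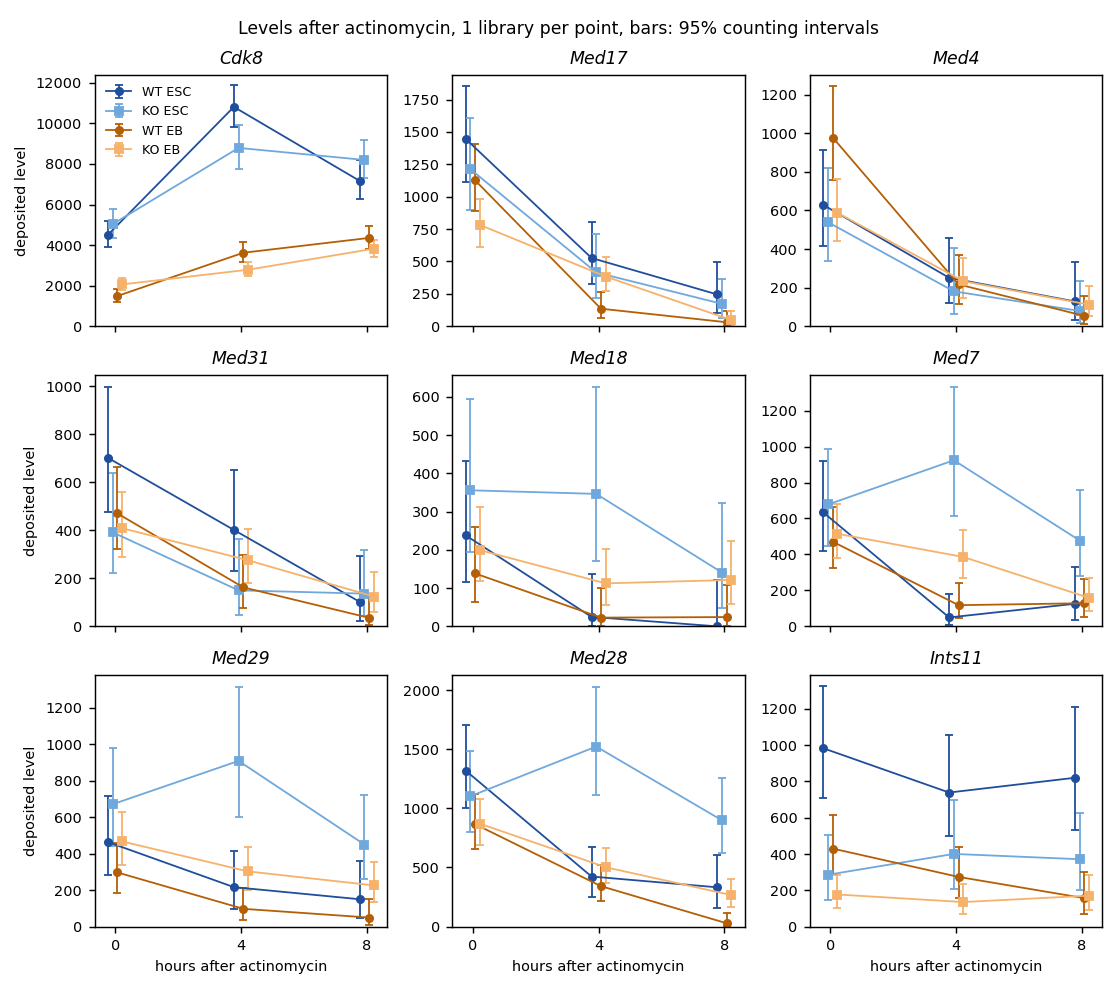
Deposited levels of 9 subunit transcripts against hours after actinomycin, with 1 library per point and exact 95% Poisson counting intervals as bars. Cdk8 is above its 0 h level at 4 and 8 h in all 4 conditions, and Med17 and Med4 decline throughout. Med18, Med7, Med29 and Med28 are higher in KO than in WT libraries of the same cell type at 4 and 8 h, though Med28 is lower in KO ESCs at 0 h.

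Cdk8 was the 1 member that rose, with a mean slope of 0.12 ± 0.03 (limma adjusted p 0.00611), among 30 entries that rose of 12704 tested, or 0.236%. The share of its 0 h level present at 8 h was 159% in WT ESCs (95% counting interval 130 to 194), 163% in KO ESCs (136 to 196), 292% in WT EBs (231 to 372) and 185% in KO EBs (155 to 223). At least this share was reached by 14.2%, 16.1%, 2.52% and 5.65% of entries in the same order. The call was lost without 1 library in 5 cases: the 0 h library of WT ESCs (0.06), KO ESCs (0.09), WT EBs (0.09) or KO EBs (0.12), or the 8 h library of KO EBs (0.12). It was also lost without the variance trend (limma adjusted p 0.0959) and without both EB libraries of 8 h (limma adjusted p 0.0596). The call was kept in 12 of 19 other fits. The annotation places a processed pseudogene, Gm15739, on the same strand between 146248551 and 146249422 inside Cdk8 without touching its exons. Its part in the tags counted for Cdk8 was not tested.

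Shares left at 8 h differed between conditions and with the scaling. The members' median was 50.4% in WT ESCs, 71.3% in KO ESCs, 36.7% in WT EBs and 61.4% in KO EBs, beside 76.4%, 93.3%, 49.0% and 83.0% for all entries tested that were above 0 at 0 h. With equal column totals the same 4 medians were 55.2%, 67.2%, 83.1% and 69.5%, so that WT EBs moved from the lowest to the highest. The column total of WT EBs was also lower at 8 h than at 0 h, and its part in these shares was not tested. By module at 8 h in WT ESCs, the head had a median of 39.0%, the middle 77.1%, the tail 40.9% and the kinase module 59.2%. In WT EBs the kinase module stood at 129% and the head at 25.2%, and in KO EBs these were at 51.4% and 60.9%, in the opposite order. In KO ESCs the middle was at 124%, the tail at 106%, the kinase module at 93.0% and the head at 67.3%. At 8 h the head thus lay below the middle and the tail in all 4 conditions, and the place of the kinase module differed. At 4 h the head was above the middle in KO ESCs (97.4% beside 93.8%) and WT EBs (43.2% beside 34.7%). It was below the middle in WT ESCs (50.5% beside 59.3%) and KO EBs (62.4% beside 82.8%). The order of modules was not tested.

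**Figure D3:**
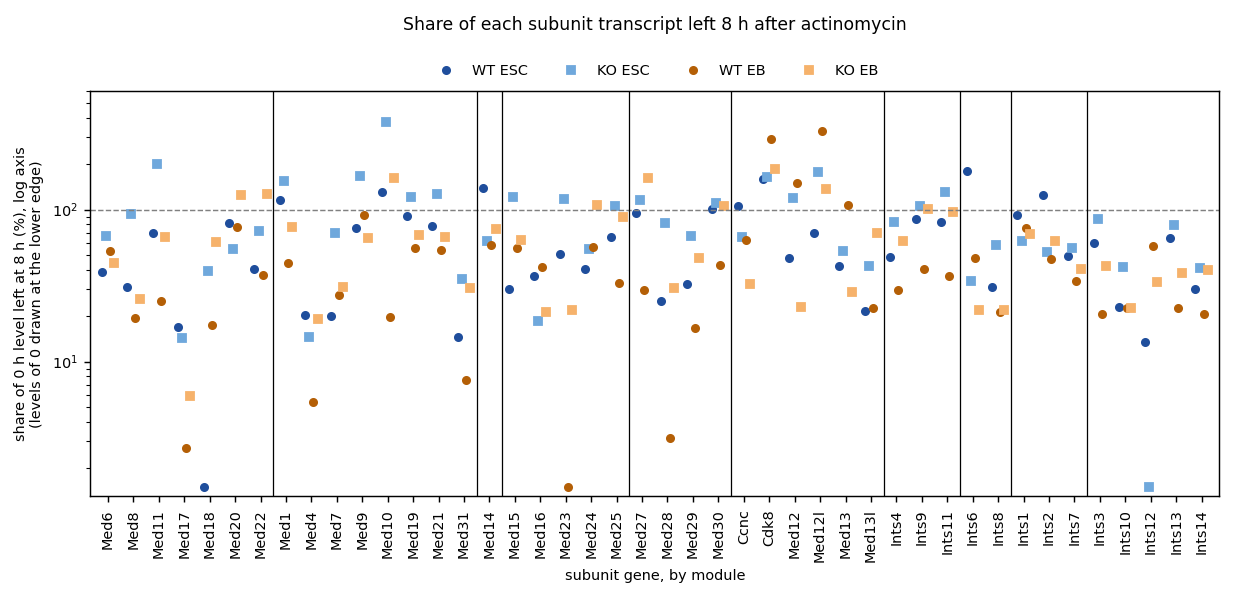
Share of the 0 h level present at 8 h for each subunit, in percent on a log axis, with 1 point per condition and vertical lines between modules. Points at the lower edge are levels of 0, the dashed line is 100%, and Cdk8 is above that line in all 4 conditions while Med17 and Med4 lie at or below 20.4%.

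Between KO and WT ESCs, the members called higher in KO were 6 of 31 Mediator genes and 0 of 13 Integrator genes, and the complexes were not tested against each other. As means over 0, 4 and 8 h, 6 members were higher in KO and 1 was lower by limma, which is 15.9% of the members where 14.1% of all entries passed. The share called higher was 13.6% beside 10.9% of all entries and the share lower 2.27% beside 3.27%, so the members' count lies near the background. With the filter at 20 ppm it was 19.4% of 36 members beside 24% of entries. Their median difference was -0.09 beside 0.18 for all entries, and with median-ratio scaling the calls were 4 higher and 2 lower. By time the members' median was -0.26 at 0 h, -0.004 at 4 h and 0.06 at 8 h, beside 0.03, 0.23 and 0.26 for all entries.

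Med18 (NM_026039, chromosome 4, 132458729 to 132463921 on GRCm38), part of the movable jaw of the head, showed the largest difference. Its levels were 238, 24.7 and 0 at 0, 4 and 8 h in WT ESCs and 356, 346 and 141 in KO ESCs. The counting interval of the level of 0 reached 121, and the WT levels at 4 and 8 h lay below all 3 KO levels, although the counting intervals at 8 h overlapped. The difference was 2.70 ± 0.50 (log2, SE, limma adjusted p 0.00253), and the call was kept in all 19 other fits in which Med18 was tested. Its single-time differences were 0.56 at 0 h, 3.41 at 4 h and 4.12 at 8 h, each from 1 library per group. The WT level at 4 h equals 1 read equivalent and that at 8 h is 0, so the size of the difference rests on very few reads. With a pseudocount of 5 ppm the difference was 1.71, and Med18 was too low to be tested with the filter at 20 ppm.

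Med7, which forms a hinge of the middle module with Med21, had levels of 634, 49.5 and 126 in WT ESCs against 678, 924 and 477 in KO ESCs, a difference of 1.99 ± 0.55 (limma adjusted p 0.0250). Its single-time differences were 0.10 at 0 h, 4.01 at 4 h and 1.86 at 8 h, each from 1 library per group, and the WT level at 4 h rests on 2 read equivalents. The mean difference was 3.54 and still called without WT ESCs at 0 or 8 h. Without WT ESCs at 4 h the difference was 1.21, without KO ESCs at 4 h 1.76, and without KO ESCs at 0 or 8 h 2.45, none of them past the threshold. The Med7 call was also lost without the filter on low levels and without the variance trend. It was kept in 14 of 20 other fits. Med29, at the boundary of head and tail, had 463, 216 and 150 in WT against 671, 909 and 450 in KO ESCs, a difference of 1.36 ± 0.34 (limma adjusted p 0.0139). It was lost without WT ESCs at 0 or 8 h (1.55) and without KO ESCs at 4 h (1.12).

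Med11, a head subunit that pairs with Med22, was higher at all 3 times, with 122, 199 and 85.7 in WT against 306, 471 and 611 in KO ESCs. All KO levels exceeded all WT levels, and the difference was 1.73 ± 0.38 (limma adjusted p 0.00772). Without WT ESCs at 0 or 8 h it was 1.12, and without KO ESCs at 0 or 8 h 1.81, in neither case past the threshold. Med9, a small middle subunit, had 361, 411 and 275 in WT against 568, 743 and 950 in KO ESCs, a difference of 1.08 ± 0.31 (limma adjusted p 0.0320). Again no KO level fell within the WT range, and the call was lost without WT ESCs at 0 or 8 h (0.83), KO ESCs at 0 or 8 h (1.09) or KO ESCs at 4 h (1.07). It was kept in 11 of 20 other fits and was also lost with median-ratio scaling (0.90), with additive time terms, without the variance trend and when both 8 h EB libraries were left out. Med1, the subunit that nuclear receptors bind, had 292, 179 and 336 in WT against 538, 478 and 833 in KO ESCs, a difference of 1.17 ± 0.37 (limma adjusted p 0.0479). This call sat at the threshold and was kept in only 6 of 20 other fits. It was lost without WT ESCs at 4 h (0.92) or 8 h (1.69), without KO ESCs at 0 or 8 h (0.86) or 4 h (1.33), and without any KO EB library (1.17).

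Ints11 (NM_028020, chromosome 4, 155869547 to 155889103 on GRCm38), the endonuclease of Integrator, was the 1 member lower in KO ESCs. Its levels were 983, 739 and 820 in WT ESCs against 286, 400 and 371 in KO ESCs, with no overlap. The difference was -1.25 ± 0.30 (limma adjusted p 0.0125), and it was -1.06 and not called without WT or KO ESCs at 0 or 8 h. The call was also lost with additive time terms at the same -1.25, and it was kept in 15 of 20 other fits. WT EBs had 430, 274 and 157 and KO EBs 177, 135 and 170, and the difference of -0.70 ± 0.30 did not pass (limma adjusted p 0.192). Its partner Ints9, which forms the cleavage heterodimer with it, had 566, 979 and 493 in WT and 645, 868 and 682 in KO ESCs, with 764, 357 and 311 in WT and 238, 338 and 239 in KO EBs. For Ints9 the difference was 0.16 ± 0.33 in ESCs (limma adjusted p 0.807), with overlapping ranges. An exon of Pusl1 on the opposite strand lies within the last 500 bases of Ints11. The same holds for an opposite-strand gene at Ccnc, Ints2, Ints8, Med10, Med12l and Med19, and at Med12 for Gm21986 on the same strand, 8 members in all. The sources used here do not say how strand was used in counting, so the reads of these pairs may not be separable.

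Between KO and WT EBs, 4 Mediator members were higher and 0 members lower by limma, which is 9.09% of the members where 9.22% of all entries passed, no more than the background. The share of all entries called higher at the adjusted threshold was 7.66% and lower 1.56%. At an unadjusted p under 0.05, in either direction, there were 10 members, and all entries were not counted at that p. Med29 had 297, 97.2 and 49.2 in WT against 467, 302 and 226 in KO EBs, a difference of 1.41 ± 0.34 (limma adjusted p 0.0151). Med13l had a difference of 1.27 ± 0.29 (limma adjusted p 0.0127) on the levels given above, where KO exceeded WT at each time. Med28, a metazoan subunit, had 866, 342 and 27.4 in WT against 870, 502 and 266 in KO EBs, a difference of 1.16 ± 0.34 (limma adjusted p 0.0462). Its untreated libraries were nearly equal and its 8 h libraries far apart. In ESCs Med28 had 1319, 423 and 332 in WT against 1102, 1522 and 898 in KO, a difference of 0.99 ± 0.34 that did not pass (limma adjusted p 0.0677).

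Med9 completed the list in EBs, with 197, 198 and 181 in WT against 422, 580 and 276 in KO, a difference of 1.05 ± 0.31 (limma adjusted p 0.0477) and no overlap. No member was called without WT EBs at 0 or 8 h or without any 1 of the KO EB libraries. Without WT EBs at 0 or 8 h the differences were 1.62 for Med29, 0.94 for Med13l, 0.51 for Med28 and 1.01 for Med9. They were 1.34, 1.29, 1.20 and 1.55 without KO EBs at 0 or 8 h, and 1.44, 1.26, 1.14 and 0.80 without KO EBs at 4 h. Med9 was also lost without WT EBs at 4 h (1.08). Without any 1 of the KO ESC libraries, which enter only through the pooled spread, Med28 and Med9 were lost at the same difference. The summed endoderm markers were lower in KO EBs, as given above, and their part in these differences was not tested. The members' median difference in EBs was 0.11, and it turned to -0.11 with equal column totals and -0.06 with median-ratio scaling. On the deposited scale the median was -0.11 at 0 h, 0.38 at 4 h and 0.45 at 8 h. All entries had -0.18, 0.11 and 0.38 at these times. With equal totals or median-ratio scaling Med28 (0.99 and 1.03) and Med9 (0.83 and 0.88) were lost in EBs, and with additive time terms, without the variance trend or when both 8 h EB libraries were left out, all 4 were. Med9 and Med29 were called in both cell types, which is 28.6% of the calls in ESCs and 50% of those in EBs, and 20 of 44 members had the same sign in both. Neither count was made over all entries, so no background stands beside them. Whether the KO effect differed between cell types was tested in the same fit. For the level 0 members passed by limma at an adjusted p under 0.05, where 2.86% of all entries did. At an unadjusted p under 0.05 there were 6 members, a count not made for all entries.

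**Figure D4:**
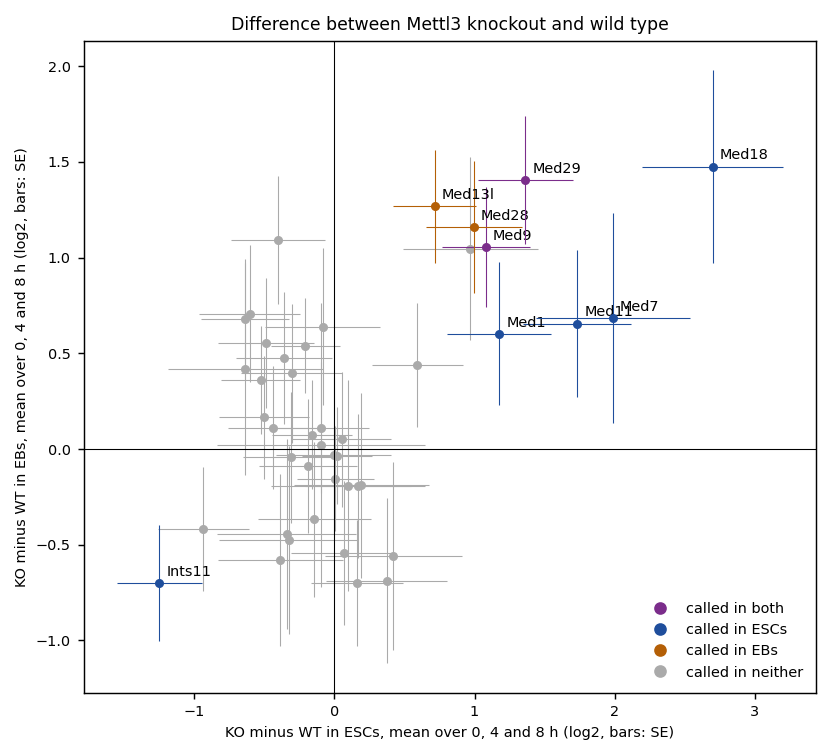
KO minus WT difference of each of the 44 members in ESCs (horizontal) and EBs (vertical), log2 means over 0, 4 and 8 h with limma standard errors as bars. Coloured points passed the test in ESCs, EBs or both, grey ones in neither; Med18 lies farthest right and Ints11 farthest left.

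Because Mettl3 writes m6A, transcripts were searched for GGACT, a core form of the sequence it prefers, on the transcript strand in the 400 bases centred on the stop codon, the region where m6A is known to be dense. The motif was present for 20 of 41 members with a full window (48.8%) and for 4442 of 10839 entries tested (41.0%). Over whole transcripts the median was 1.00 per kb for members and 1.06 for all entries. Of the members called between KO and WT, Med18, Med7 and Med1 have no GGACT in this window. The 6 that have one are shown from GENCODE transcripts on GRCm38 with the motif in capitals, since they are the called transcripts where it lies near the stop codon, and Med13 is added as the paralog of Med13l.
Med9: agatccccaaGGACTaggccagccc
Med29: ctgccctgctGGACTgtgccaacaa
Med11: cttccaggaaGGACTgtcaaatggc
Ints11: ttggtctcctGGACTtaccaggatg
Med28: tgtgttggaaGGACTctgttggata
Med13l: cacaccctctGGACTccaagaccac
Med13: cccacccactGGACTcaaatcagac
Counted from the first base of the stop codon to that of the motif, the distance is 4 bases in Med9, 64 in Med29, 88 in Med11 and 74 in Ints11, all before the stop, and 73 after it in Med28. In Med13 and Med13l it is 160 bases before the stop in both. Of these 6 called members, Med11, Med9 and Med29 were higher in KO ESCs, and Med28, Med13l, Med9 and Med29 in KO EBs. Ints11 alone was lower, in KO ESCs. Whether the motif is linked to a direction was not tested. A match describes the letters only, and m6A was not measured in these libraries.

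Slopes after actinomycin were then compared between genotypes. In ESCs 0 members passed by limma at an adjusted p under 0.05, where 0.0394% of all entries did. At an unadjusted p under 0.05 there were 2 members. Med18 had the smallest p, with a KO minus WT slope difference of 0.44 per hour (limma adjusted p 0.320), followed by Med10 at 0.19 (adjusted p 0.488) and Med15, a tail subunit, at 0.25 (adjusted p 0.502). In EBs 0 members passed at the adjusted threshold, where 1.19% of all entries did. At an unadjusted p under 0.05 there were 6 members, and in neither cell type were all entries counted at that p. Med10, a middle subunit, came nearest, with levels of 1049, 519 and 208 in WT against 551, 499 and 885 in KO EBs and a slope difference of 0.37 ± 0.09 (limma adjusted p 0.0502). Its WT levels declined while the KO level at 8 h was the highest of its condition. In ESCs its levels were 815, 963 and 1071 in WT and 394, 472 and 1486 in KO.

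Med28 followed in EBs with a slope difference of 0.37 ± 0.10 (limma adjusted p 0.0872). Leaving out WT EBs at 4 h brought both Med10 (0.37, adjusted p 0.0373) and Med28 (0.37, adjusted p 0.0479) past the threshold. Med10 was called in 3 and Med28 in 2 of 19 other fits, over which the limma adjusted p ran from 0.0134 and 0.0278 to 1.00 for both, and the differences reached down to 0.22 and 0.12. With equal totals or median-ratio scaling 0 of all entries passed in this comparison. Med12 had a difference of -0.31 ± 0.13 in EBs (limma adjusted p 0.208), and it was 0.0032 without both EB libraries of 8 h. The difference between cell types of the slope effect passed for 0 members and 0 of all entries by limma at an adjusted p under 0.05. At an unadjusted p under 0.05 there was 1 member, and all entries were not counted at that p.

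Between EBs and ESCs, subunit transcripts were lower in EBs on the deposited scale. In WT, 22 members were lower and 0 higher by limma, which is 50% of the members where 32.6% of all entries passed in either direction, 29.1% were lower and 3.49% higher. The median difference was -0.96 beside -0.50 for all entries. In KO, 11 members were lower and 0 higher, or 25% where 24.1% of all entries passed with 23.2% lower and 0.929% higher, and a median of -0.82 beside -0.61. In bulk libraries, fewer cells of a type and less RNA per cell cannot be told apart.

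The summed ESC markers and all column totals, given above, were also lower in EBs, and their part in these counts was not tested. The counts depended on the scaling. With equal column totals 1 member was lower in WT EBs and 0 in KO EBs, while the median of all entries moved from -0.50 to 0.42 in WT and from -0.61 to 0.09 in KO. The members' median was then -0.07 in WT and -0.15 in KO, and with median-ratio scaling it was -0.29 and -0.16, with 5 and 0 members lower. As means over 0, 4 and 8 h, the members' median difference was below that of all entries in both genotypes. This held under the deposited scale and both of these scalings. On the deposited scale at 0 h it was -0.64 beside -0.29 in WT, but -0.51 beside -0.53 in KO, so not lower. In KO it was -0.85 beside -0.63 at 4 h and -0.95 beside -0.74 at 8 h. The gap between members and all entries also shrank among abundant entries. With the filter at 20 ppm the medians were -1.004 and -0.90 in WT and -0.83 and -0.79 in KO. The share called was then 69.4% of 36 members beside 59.3% of entries in WT, and in KO 36.1% beside 50.4%, below the background.

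Ints10 was the 1 member that passed under all 3 scalings in WT. Its levels were 1346, 796 and 306 in WT ESCs and 334, 222 and 75.3 in WT EBs, a difference of -1.90 ± 0.32 (limma adjusted p 0.000413). In KO ESCs it had 709, 547 and 296 and in KO EBs 364, 268 and 82.5. At each time the EB level was below the ESC level of the same genotype. Med19, which helps the middle module contact the polymerase, followed in WT with a difference of -1.80 ± 0.33 (limma adjusted p 0.000802), on 507, 332 and 461 in ESCs and 169, 98.8 and 95.0 in EBs. Its ranges did not overlap.

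Med23, a tail subunit, had 279, 90.6 and 143 in WT ESCs and 129, 80.5 and 0 in WT EBs, where the counting interval of the level of 0 reached 64.9. Its difference of -1.79 ± 0.55 (limma adjusted p 0.0215) was lost without WT ESCs at 0 or 8 h (-1.07) and without WT EBs at 0 or 8 h (-0.87). Ints7, a backbone subunit, had 942, 578 and 468 in WT ESCs and 314, 169 and 106 in WT EBs, a difference of -1.78 ± 0.32 (limma adjusted p 0.000562). Med17 differed by -1.65 ± 0.34 (limma adjusted p 0.00182) and Ints11 by -1.64 ± 0.30 (limma adjusted p 0.000756), on the levels given above. Each of Med19, Ints7, Med17, Ints11 and Med23 missed the threshold with equal column totals, at -0.93, -0.90, -0.82, -0.75 and -1.32. Med23 also missed it with median-ratio scaling (-1.45).

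In KO, Ints8, a subunit of the phosphatase arm, had 670, 665 and 393 in ESCs against 306, 177 and 66.5 in EBs, a difference of -1.80 ± 0.38 (limma adjusted p 0.00494). Ints9 differed by -1.41 ± 0.33 (limma adjusted p 0.00845) and Cdk8 by -1.35 ± 0.25 (limma adjusted p 0.00281). Cdk8 was also lower in WT EBs, by -1.30 ± 0.25 (limma adjusted p 0.00111). Med15 had a difference of -1.34 ± 0.38 (limma adjusted p 0.0199), Ints2 of -1.30 ± 0.40 (limma adjusted p 0.0302) and the head subunit Med8 of -1.24 ± 0.32 (limma adjusted p 0.0141). None of these 6 passed in KO under either of the other scalings, where their differences lay between -1.15 and -0.57. Without KO EBs at 0 or 8 h no member was called in KO, with Ints2 at -0.55. Without KO ESCs at 0, 4 or 8 h 5, 4 and 3 were called. The lost calls included Ints2 without any of the 3 (-1.24 at 0 or 8 h, -1.33 at 4 h) and Med8 likewise (-1.57 and -1.08). Med15 was lost without KO ESCs at 4 h (-1.07) and Ints9 without KO ESCs at 8 h (-1.67). In WT, 11 members were called without WT EBs at 0 or 8 h.

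**Figure D5:**
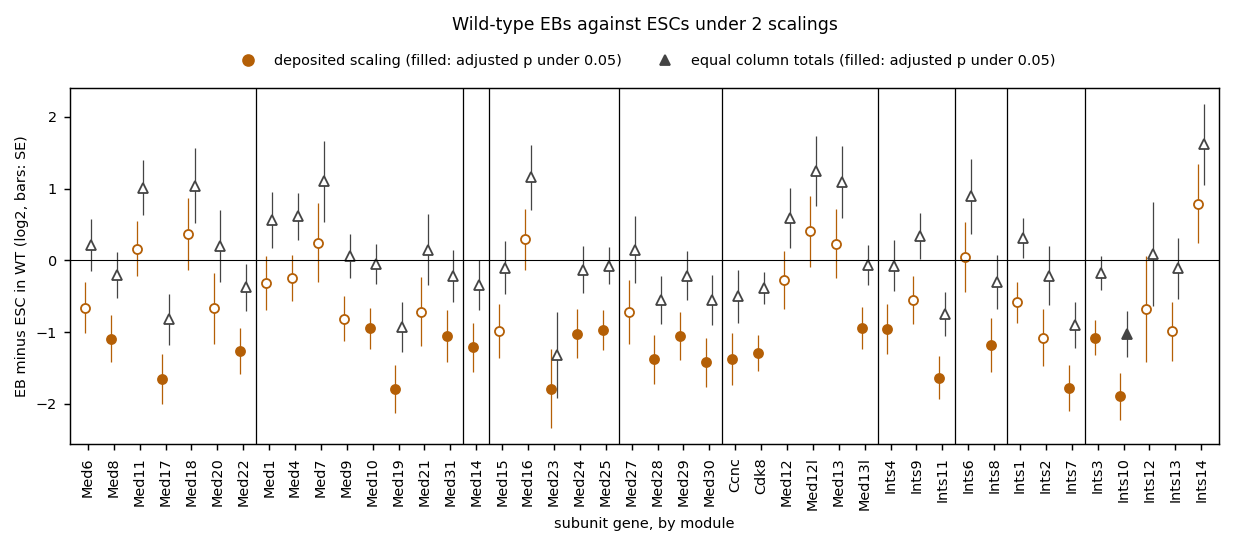
EB minus ESC difference in WT for each subunit, as log2 means over the 3 times with limma standard errors, on the deposited scale (circles) and with equal column totals (triangles). Filled symbols passed the test, 22 on the deposited scale and 1, Ints10, with equal totals.

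The 8 members lower in both genotypes on the deposited scale were Cdk8, Ints8, Ints10, Ints11, Med8, Med25, Med28 and Med29. This overlap was not counted over all entries. Med25, a tail subunit, differed by -0.97 ± 0.27 in WT (limma adjusted p 0.0131) and by -1.13 ± 0.27 in KO (limma adjusted p 0.0102). Across modules in WT, 3 of 7 head, 3 of 8 middle, 3 of 5 tail and 3 of 6 kinase members were lower, with 3 of the 4 members Med27 to Med30 and the scaffold Med14. In KO these counts were 1 of 7, 0 of 8, 2 of 5 and 1 of 6, with 2 of the 4 and not Med14, or 6 of 31 in Mediator. In Integrator, 6 of 13 were lower in WT and 5 of 13 in KO.

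Genes that work beside these complexes, the general transcription factors, polymerase subunits, pause and elongation factors, 3′ end cleavage factors and PP2A subunits, were followed as a list of 73, of which 71 were tested. Between KO and WT ESCs 5 were higher, or 7.04% beside 10.9% of all entries, and 0 lower. Cstf1, a cleavage stimulation factor, differed by 2.09, Cdk9, the kinase of P-TEFb, by 1.68, Ell2, an elongation factor, by 1.47 and Gtf2h5, a subunit of TFIIH, by 1.21. In EBs 9 were higher, or 12.7% beside 7.66%, and 0 lower, led by Cstf1 at 2.29, Cdk9 at 1.78, the TFIIE subunit Gtf2e1 at 1.53 and Gtf2h5 at 1.28. Of all entries that pass the filter at 20 ppm, 21.3% were called in EBs in either direction. The list's median was 0.09 in ESCs, where it was -0.09 with median-ratio scaling, and 0.25 in EBs.

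Between EBs and ESCs, 43 of the 71 were lower in WT and 31 in KO on the deposited scale, or 60.6% and 43.7% beside 29.1% and 23.2% of all entries, and 0 were higher in either. Among the 6513 entries that pass the filter at 20 ppm, 3698 were lower in WT and 3244 in KO. There 59.3% and 50.4% were called in either direction, and the list was not counted with that filter. With equal totals 6 were lower and 1 higher in WT, and with median-ratio scaling 11 were lower, while in KO 0 passed under either. In WT these were led by Ercc3, a helicase of TFIIH, at -2.03, Gtf2e1 at -1.97, Cstf2 at -1.85 and Cstf3 at -1.70. After actinomycin 26 fell, or 36.6% beside 21.4%, and 0 rose by their mean slope. Of all entries that pass the filter at 20 ppm, 40.9% were called by slope in either direction. With equal totals 11 fell and with median-ratio scaling 7. The steepest were Gtf2b, which encodes TFIIB, at -0.33, Cdk7, the TFIIH kinase, at -0.30, Nabp1 at -0.27 and the PP2A catalytic subunit Ppp2ca at -0.23. The slope difference between genotypes passed for 0 of them in ESCs and for 1 in EBs, the polymerase subunit Polr2h at 0.34, which passed under neither other scaling.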

How the data were processed

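Reads from poly(A) 3′ ends of 12 mouse libraries had been turned by the authors into 1 deposited table of normalized signal per RefSeq entry, with 1 column per library. Fragmented RNA was enriched for poly(A) ends and made into strand-specific cDNA, per the labels' protocols. Per the submitters' processing notes, the build was mm10 and the tools included Bowtie2 2.1.0, Bowtie and CASAVA 1.8.2. Counting and scaling are not given in the sources used here.

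Identifiers were matched to symbols in a RefSeq table on GRCm38.p6 (19535) and GENCODE (98), leaving 113, and 38 identical duplicates were dropped. Groups came from sample titles. Values under 100 were whole multiples of a step in each library for at least 99.8% of entries, within 0.1 of a step. Taking 50 steps as 1 read, exact Poisson and Clopper-Pearson 95% intervals were computed. They cover counting error only.

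Limma 3.58.1 in R 4.3.3 was run on log2(level + 8.58). The pseudocount 8.58 equals 1 ppm of the average column total and understates changes of low entries. The 12704 entries whose level averaged 42.9 (5 ppm) or more were tested. The fit has a level at 4 h and a slope per hour for each of the 4 conditions, 4 residual degrees of freedom and a trended variance prior worth 11.1 more. Its spread is the scatter of 3 times around a line. P-values were adjusted by Benjamini-Hochberg over all entries tested, with a threshold of 0.05. The script was tested on simulated data, where the recovery of planted changes depended strongly on the noise assumed.

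Members and lists were chosen with earlier results of these data known. Values in every library are given for the kinase module, Med14, Ints11 and Ints9. In each of 7 comparisons up to 6 called members in each direction are named by size, or, if none was called, those with the 3 smallest p, and of the list of neighbouring factors up to 4. Med25, Ints10 slopes, Cdk19, the 2 contrasts between cell types, the scalings of that list, the GGACT search and the check of overlapping genes were chosen after the values were seen. Alternatives were another pseudocount, other filters, equal totals, median-ratio scaling, no variance trend, additive time terms, and libraries left out.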

Additional observations from a re-analysis of the deposited data

How the results depend on the processing

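No paired analysis was possible because the labels give no replicate numbers and each group has 1 library. Members called between KO and WT ESCs numbered 7, and 4 without the variance trend or with additive time terms. Between KO and WT EBs they numbered 4, with 2 without a filter, with equal column totals or with median-ratio scaling, and 0 without the trend, with additive terms or without both EB libraries of 8 h. Between EBs and ESCs of WT the 22 became 1 with equal totals, 5 with median-ratio scaling, 13 without the trend or with additive terms, and 8 without both EB libraries of 8 h. In KO the 11 became 0 with equal totals, with median-ratio scaling, without the trend and without both 8 h libraries, and 3 with additive terms. The 21 mean slopes became 13 with equal totals, 11 with median-ratio scaling and 7 without both 8 h libraries. For the slope difference in EBs the 0 became 1 with a pseudocount of 5 ppm and 2 with a filter at 20 ppm. The Med12 slope difference in EBs changed sign to 0.0032 without both 8 h libraries. Median shares left at 8 h were 55.2%, 67.2%, 83.1% and 69.5% with equal totals and 67.5%, 76.7%, 79.2% and 76.0% with median-ratio scaling, for WT ESCs, KO ESCs, WT EBs and KO EBs. Leaving out 1 library gave 2 to 8 calls between KO and WT in ESCs, 0 to 5 in EBs, 11 to 22 between EBs and ESCs in WT, 0 to 11 in KO, 8 to 21 mean slopes and 0 to 2 slope differences in EBs. It gave 0 slope differences in ESCs, 0 to 1 differences between cell types of the level effect and 0 of the slope effect. Leaving out the 0 or 8 h library reduces that condition to its 4 h value, and the cause of the other changes was not tested. Mean slopes fell to 11, 12, 9 and 8 without the 0 h library of WT ESCs, KO ESCs, WT EBs and KO EBs, and to 12 without the 8 h library of KO ESCs or KO EBs. Members called in ESCs were 3 without WT ESCs at 0 h or KO ESCs at 4 h, and 2 without WT ESCs at 8 h or KO ESCs at 0 or 8 h. The calls of Med18 in ESCs, of Ints10 between WT EBs and ESCs, and of the slopes of Med17, Med4, Med31 and Med28 held in every setting in which they were tested. Med18 was not tested with the filter at 20 ppm.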
